A study of Mus musculus with 28 samples.

Results

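The 50 genes described here code for the receptors of GABA, glycine and glutamate. They were taken by symbol from the 55487 genes of the count table, with no threshold on a measured value, but the family itself was picked with earlier results of these data known. Among them, 19 code for subunits of the GABA-A receptor (the rho subunits included), 2 for the GABA-B receptor, 5 for the glycine receptor, 16 for AMPA, kainate and NMDA receptors, and 8 for metabotropic glutamate receptors.

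The RNA came from mouse hypothalamus and was split in 2 fractions. All mice carried LepRb eGFP-L10a, a reporter that puts eGFP on the ribosomal protein L10a in cells with the leptin receptor isoform LepRb. RNA held by antibodies against eGFP is the bead fraction, and RNA left in the supernatant is the depleted fraction. Each of 14 lysates gave 1 library of each fraction, 28 in all. Of these lysates, 1 came from ob/ob mice (Lep ob/ob, without functional leptin) taken 10 h after leptin and 2 from ob/ob mice taken 10 h after vehicle. A further 3 came from wild-type (WT) mice 10 h after leptin, 1 from WT mice 10 h after vehicle, 3 from WT mice 3 h after leptin and 4 from WT mice 3 h after vehicle. Leptin was metreleptin at 5 mg per kg, injected intraperitoneally. All mice were 10 to 13 weeks old, of both sexes, and had food withdrawn at lights-on, so the 10 h groups had also fasted longer. The cells tagged are those that express LepRb anywhere in the hypothalamus, a mixture that holds several neuron types. Neither the driver of the reporter nor the number of mice in a lysate is given in the sources used here. If lysates are not separate mice, the p-values measure only the spread between these samples. Each of the 3 combinations of genotype and time was sequenced in its own run (6 libraries for ob/ob 10 h, 8 for WT 10 h and 14 for WT 3 h), so genotype, time and run cannot be told apart.

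GABA-A receptors are chloride channels built from 5 subunits, usually a pair of alpha, a pair of beta and a gamma or delta subunit. The epsilon and theta subunits are found mainly in hypothalamus and brainstem. GABA-B receptors are G protein coupled and work as a pair of Gabbr1 and Gabbr2. Glycine receptors are chloride channels of alpha subunits with the beta subunit Glrb. Glutamate opens AMPA, kainate and NMDA channels, each of 4 subunits, and acts more slowly through metabotropic receptors. In the arcuate nucleus, LepRb neurons that make Agrp release GABA, and leptin is known to change inhibitory and excitatory input to feeding neurons.

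Library totals were 21277982 to 42267040 counts in beads and 19649105 to 41804049 counts in the depleted fraction. Levels of a gene are in CPM (counts scaled to library size, with TMM factors), and levels are compared between genes only in RPKM (CPM per kilobase of exon). Adjusted p-values are from edgeR's two-sided quasi-likelihood F test, adjusted over every gene tested by the Benjamini-Hochberg method, and a gene passed below 0.05. All 10 markers of LepRb cells were higher in beads, with log2 differences of 2.28 for Lepr, 5.29 for Agrp and 4.38 for Pomc. Glia were depleted from the beads without being gone. The 12 astrocyte markers summed to 773 to 1701 CPM in beads and 1645 to 2106 CPM in the depleted fraction. The 12 oligodendrocyte markers summed to 1141 to 3549 CPM and 4630 to 6556 CPM, and the 12 microglia markers to 25.7 to 92.5 CPM and 76.7 to 159 CPM, in the same order. The 12 general neuron markers summed to 9597 to 11590 CPM in beads and 9126 to 10540 CPM in the depleted fraction, but singly 7 were higher in beads and 4 lower, from -0.85 for Map2 to 0.61 for Tubb3 on the log2 scale. The 12 endothelial and mural markers summed to 22.8 to 213 CPM in beads and 61.5 to 93.1 CPM in the depleted fraction. Of these, 4 were higher in beads (Flt1, Pecam1, Cdh5 and Cldn5, by log2 differences of 1.24, 0.81, 0.73 and 0.51) and 3 lower. Of 12 ependymal and tanycyte markers, 2 were higher, Vim by 0.79 among them, and 8 were lower. The part of these cells in the receptor differences was not tested. Lysates WT 3 h leptin f2, WT 3 h vehicle m3 and ob/ob leptin 1 also held pituitary RNA. Growth hormone (Gh) was at 548, 57.0 and 21.8 CPM in their beads, in that order. The last is the only ob/ob leptin lysate. The names m1, m3, m24 and f1 to f4 are those of the labels.

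Of the 50 receptor genes, 47 had counts enough to be compared between fractions. The GABA-A pi subunit Gabrp summed to 8 counts over all bead libraries and 4 over all depleted libraries, the rho subunit Gabrr3 to 14 and 21, and Grm6, a receptor best known from the retina, to 4 and 5. These 3 were not tested, and no difference was detectable at this depth.

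Compared with the depleted fraction, bead RNA carried more of a small group of GABA-A and glycine receptor subunits. The theta, epsilon and alpha5 subunits of the GABA-A receptor were 2.34-, 2.22- and 1.91-fold higher in beads, and higher in every lysate. Of the 16 AMPA, kainate and NMDA genes, 8 were lower in beads and 2 were higher. The delta and rho2 subunits and the NMDA subunit Grin2c were more than 2-fold lower in beads. Of the 47 genes, 13 were higher in beads, 23 were lower and 11 did not pass the test. The share that passed, 76.6%, was near that of all genes: 77.9% of the 19682 genes tested passed, 38.6% of them higher and 39.3% lower. The median log2 difference was -0.15 over the receptor genes and -0.01 over all genes. This difference varied with exon length. With 5 kilobases of exon or more, the median was -0.15 over 33 receptor genes and -0.14 over all 6778 genes. With 2 to 5 kilobases it was -0.17 over 14 receptor genes and 0.07 over all 8285 genes. The part of exon length was not tested. In such bulk RNA, fewer cells of a type and less RNA of a gene per cell cannot be told apart. Beads also differ from the depleted fraction in being selected for ribosome-bound RNA, although they held glial and pituitary RNA too.

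**Figure D1:**
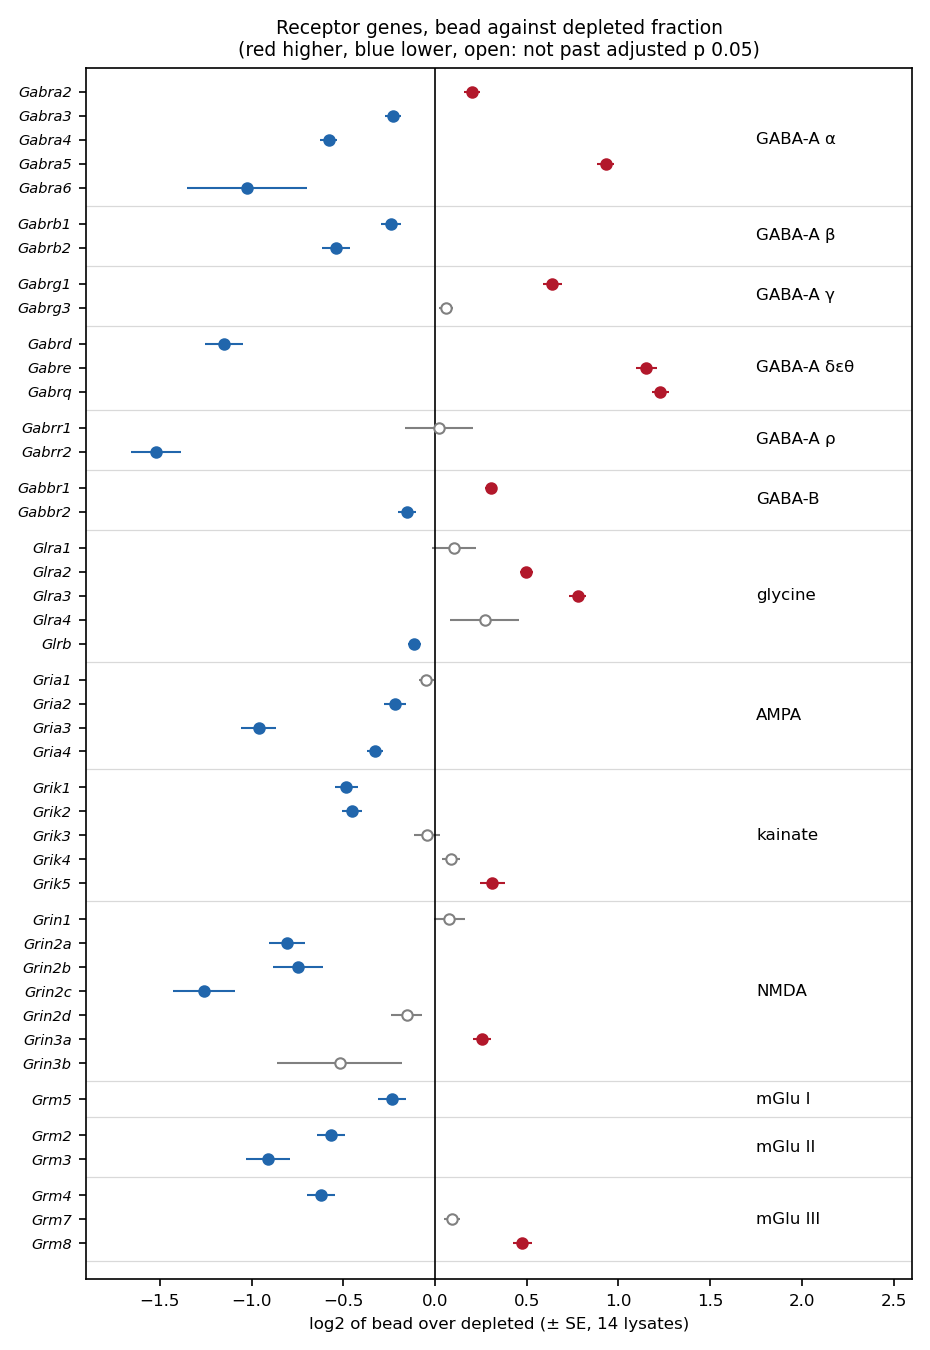
Log2 of bead over depleted level (x axis, ± SE over 14 lysates) for 43 of the 47 receptor genes tested, grouped by family on the y axis. Filled points passed an adjusted p of 0.05 (red higher in beads, blue lower) and open points did not. Gabrq, Gabre and Gabra5 lie farthest to the right, and Gabrr2, Grin2c and Gabrd farthest to the left.

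The theta subunit Gabrq had the largest rise. Its level in beads was 72.1 to 119 CPM with a median of 86.7, against 26.8 to 44.8 CPM with a median of 37.3 in the depleted fraction. No bead library reached down to a depleted one, and beads were higher in 14 of 14 lysates. The log2 difference was 1.23 (SE 0.047, adjusted p = 2.7e-14), a 2.34-fold higher level. Gabre, the epsilon subunit, had 19.3 to 39.2 CPM in beads (median 26.9) and 8.22 to 16.2 CPM in the depleted fraction (median 13.5). Again the fractions did not overlap, and the log2 difference was 1.15 (SE 0.057, adjusted p = 8.5e-13). Both genes lie beside Gabra3 on the X chromosome, in a cluster at chrX:72255999-72842602 (GRCm38). The alpha3 subunit in the middle of that cluster went the other way: Gabra3 had 93.1 to 146 CPM in beads and 115 to 144 CPM in the depleted fraction, with a log2 difference of -0.23 (SE 0.044, adjusted p = 7.7e-05). Neighbouring genes of this cluster differed in direction.

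The promoters of the 2 subunits with the largest rises are shown, with that of the gamma1 subunit Gabrg1. Gabrg1 was added because it alone of these 3 holds a STAT-type motif. Gabra5 and Glra3 rose more than Gabrg1, and their promoters hold no such motif. Any part of the motif in the level of Gabrg1 was not tested. Each line gives the 250 bases before the gene's start, 5′ to 3′ on the gene's strand, from RefSeq on GRCm38.p6. Gabrq lies on the plus strand at chrX:72824928-72825177, Gabre on the minus strand at chrX:72274722-72274971 and Gabrg1 on the minus strand at chr5:70842618-70842867. Capitals mark a match to TTCNNNGAA, the letters bound by STAT factors, which act downstream of the leptin receptor.
Gabrq: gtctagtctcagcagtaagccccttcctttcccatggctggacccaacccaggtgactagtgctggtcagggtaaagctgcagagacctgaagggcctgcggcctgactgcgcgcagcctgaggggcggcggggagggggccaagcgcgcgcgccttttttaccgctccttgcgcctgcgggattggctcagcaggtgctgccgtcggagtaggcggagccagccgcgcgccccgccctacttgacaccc
Gabre: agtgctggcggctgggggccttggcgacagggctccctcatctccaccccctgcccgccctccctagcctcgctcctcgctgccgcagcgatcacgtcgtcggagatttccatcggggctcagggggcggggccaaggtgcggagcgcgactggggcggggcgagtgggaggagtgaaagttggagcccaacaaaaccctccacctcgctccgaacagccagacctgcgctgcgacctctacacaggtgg
Gabrg1: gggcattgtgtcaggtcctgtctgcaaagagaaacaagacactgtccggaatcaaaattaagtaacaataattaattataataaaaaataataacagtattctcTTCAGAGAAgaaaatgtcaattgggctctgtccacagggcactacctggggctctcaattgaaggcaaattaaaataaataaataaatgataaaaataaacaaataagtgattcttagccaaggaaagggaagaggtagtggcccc

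The motif TTCNNNGAA was searched on both strands of 43 promoter entries of 36 receptor genes. It was present in 2 of them, those of Gabrg1 and Gabra6, and in 7.02% of the 32851 promoters of the whole table. The cyclic AMP response element TGACGTCA was in 0 of the 43 entries and in 1.55% of all promoters. TATAAA was in 5 entries, belonging to Gabra3 (2 entries), Gabrb2, Glra2 and Grin3b, and in 12.4% of all promoters. Of the 3 promoters printed, those of Gabrq and Gabre are rich in C and G and hold none of these 3 motifs.

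The alpha subunits differed among themselves: 2 of 6 were higher in beads and 4 were lower. The alpha5 subunit Gabra5, best known from extrasynaptic receptors of the hippocampus, had 63.3 to 103 CPM in beads (median 84.4) and 33.9 to 55.8 CPM in the depleted fraction (median 43.6). The fractions did not overlap and beads were higher in 14 of 14 lysates, with a log2 difference of 0.93 (SE 0.044, adjusted p = 5.3e-13). Gabra2 was slightly higher, by 0.20 on the log2 scale (SE 0.043, adjusted p = 2.3e-04). It passed in 20 of 23 alternative settings. The call was lost with library totals in place of TMM (0.03) and with scaling by neuron markers (0.09, adjusted p = 0.061). Gabra4, a partner of the delta subunit in thalamus and striatum, had 69.1 to 127 CPM in beads (median 93.0) and 110 to 179 CPM in the depleted fraction (median 144). Ranges overlapped, but beads were lower in all 14 lysates, and the log2 difference was -0.58 (SE 0.047, adjusted p = 7.4e-10).

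Gabra6, a subunit of cerebellar granule cells, was called lower in beads with a log2 difference of -1.02 (SE 0.33, adjusted p = 0.0084), but the value rests on 1 lysate. In ob/ob vehicle lysate 2 it had 7.84 CPM in beads against 14.2 CPM in the depleted fraction, and in every other lysate at most 0.148 CPM in beads against 0.262 CPM in the depleted fraction. Without that lysate it had too few counts to be tested, and without the lysate as a block the adjusted p was 0.49. Gabrd and Grin2c, which cerebellar granule cells also use, had 19.2 and 26.3 CPM in the depleted library of that lysate, within the range of the other depleted libraries.

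Of the beta subunits, Gabrb1 and Gabrb2 were lower in beads. Gabrb1 had a log2 difference of -0.24 (SE 0.053, adjusted p = 3.6e-04). Gabrb2 had 36.1 to 87.2 CPM in beads and 61.8 to 94.8 CPM in the depleted fraction, lower in all 14 lysates (log2 difference -0.54, SE 0.076, adjusted p = 3.4e-06). Neighbouring GABA-A genes on chromosome 5 differed in direction. At chr5:70751047-72149037, Gabrg1 and Gabra2 were higher in beads while Gabra4 and Gabrb1 were lower.

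Gamma subunits give GABA-A receptors their benzodiazepine site and their place at the synapse, whereas delta marks receptors outside it. The gamma1 subunit Gabrg1 had 50.7 to 96.4 CPM in beads (median 66.0) and 29.2 to 52.2 CPM in the depleted fraction (median 43.8). Beads were higher in 14 of 14 lysates although the ranges of the fractions overlapped slightly, and the log2 difference was 0.64 (SE 0.051, adjusted p = 5.6e-10). Gabrd, the delta subunit, had 5.48 to 25.8 CPM in beads (median 12.2) and 18.6 to 38.6 CPM in the depleted fraction (median 28.1). It was lower in the beads of all 14 lysates, with overlap between lysates, by a log2 difference of -1.15 (SE 0.10, adjusted p = 1.5e-08).

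The rho subunits form GABA-A receptors best known from the retina and were scarce here. Gabrr2 had 0.365 to 1.42 CPM in beads (median 0.763) and 0.931 to 3.46 CPM in the depleted fraction (median 2.10). Beads were lower in all 14 lysates, and its log2 difference of -1.52 (SE 0.14, adjusted p = 3.3e-09) was the largest fall among the receptor genes. Gabrr1 stayed under 0.5 CPM in every library of both fractions and did not pass (log2 difference 0.02).

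Over all lysates, the 2 GABA-B subunits went in opposite directions. Gabbr1, which binds GABA, had 542 to 917 CPM in beads (median 701) and 450 to 740 CPM in the depleted fraction (median 545). Its ranges overlapped, yet beads were higher in 14 of 14 lysates, with a log2 difference of 0.30 (SE 0.030, adjusted p = 1.2e-08). Gabbr2, which couples to the G protein, had a log2 difference of -0.15 (SE 0.049, adjusted p = 0.0083) and was lower in the beads of 11 of 14 lysates. In the WT 3 h lysates its log2 difference was -0.04 (adjusted p = 0.62). It was -0.26 (adjusted p = 0.0077) in WT 10 h and -0.29 (adjusted p = 0.015) in ob/ob. With vehicle lysates only, Gabbr2 lost its call (-0.11, adjusted p = 0.16).

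Of the 5 glycine receptor genes, 2 were higher in beads, 1 was lower and 2 did not pass. Glra3 had 32.9 to 56.8 CPM in beads (median 41.6) and 21.4 to 31.2 CPM in the depleted fraction (median 24.3). Glra2, the alpha subunit of the developing brain, had 41.7 to 61.1 CPM in beads (median 48.9) and 27.0 to 40.4 CPM in the depleted fraction (median 35.8). For both genes the fractions did not overlap and 14 of 14 lysates were higher in beads. Their log2 differences were 0.78 for Glra3 (SE 0.046, adjusted p = 9.3e-12) and 0.50 for Glra2 (SE 0.037, adjusted p = 2.0e-10). The beta subunit Glrb, which anchors the receptor to gephyrin, was lower by a log2 difference of -0.11 (SE 0.033, adjusted p = 0.0047), and Glra1 (0.10) and Glra4 (0.27) did not pass.

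**Figure D2:**
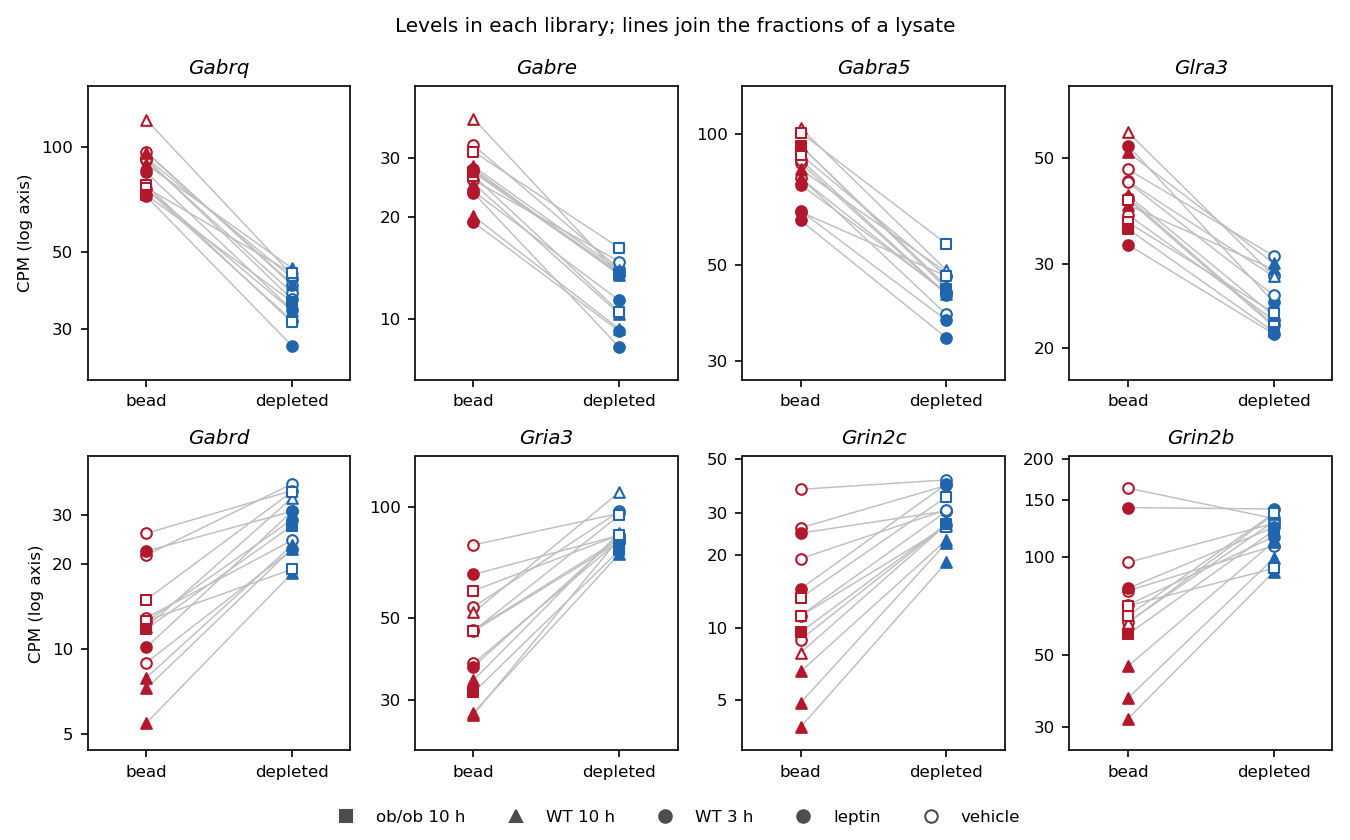
Level in each library (y axis, CPM, log axis) of 4 genes higher in beads (Gabrq, Gabre, Gabra5, Glra3) and 4 lower (Gabrd, Gria3, Grin2c, Grin2b), with bead libraries in red and depleted ones in blue. Lines join the 2 fractions of a lysate, symbols give genotype and time, and filled symbols are leptin. In the upper panels the fractions do not overlap, while in the lower panels 1 or more bead libraries reach the depleted range, such as Grin2b at 163 CPM.

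Of the 4 AMPA receptor genes, which carry fast excitation, 3 were lower in beads and Gria1 did not pass (log2 difference -0.05, SE 0.041). Gria3 had 27.4 to 79.1 CPM in beads (median 46.2) and 74.8 to 110 CPM in the depleted fraction (median 83.9). Of the bead libraries, 1 reached the depleted range, WT 3 h vehicle f1; all 14 lysates were lower in beads, and the log2 difference was -0.96 (SE 0.094, adjusted p = 6.6e-08). Gria4 was lower by a log2 difference of -0.33 (SE 0.044, adjusted p = 9.4e-07). Gria2, the subunit that keeps the channel closed to calcium, was lower by -0.22 (SE 0.059, adjusted p = 0.0021).

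Among the 5 kainate receptor genes, the high-affinity subunit Grik5 was higher in beads, Grik1 and Grik2 were lower, and Grik3 and Grik4 did not pass. Grik5 had 112 to 194 CPM in beads (median 155) and 108 to 144 CPM in the depleted fraction (median 123). The fractions overlapped, and beads were higher in 12 of 14 lysates (log2 difference 0.31, SE 0.067, adjusted p = 2.9e-04). With scaling by library totals it had a log2 difference of 0.14 and an adjusted p of 0.067. The log2 differences of Grik1 and Grik2 were -0.48 (SE 0.063, adjusted p = 7.0e-07) and -0.45 (SE 0.055, adjusted p = 2.1e-07).

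NMDA receptors need Grin1 and take their kinetics from the Grin2 subunits. Grin1 was at 68.3 to 207 CPM in beads and 84.7 to 147 CPM in the depleted fraction and did not pass (log2 difference 0.08, SE 0.083, adjusted p = 0.39). Of its exon bases, 13.5% are shared with a gene on the opposite strand, and the library kit did not mark the strand.

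Of the Grin2 genes, 3 were lower in beads and Grin2d did not pass (log2 difference -0.15, SE 0.086). Grin2c had 3.88 to 37.5 CPM in beads (median 11.2) and 18.7 to 41.0 CPM in the depleted fraction (median 28.7). Bead levels spread widely but stayed under those of the same lysate in all 14, with a log2 difference of -1.26 (SE 0.17, adjusted p = 4.8e-06). Grin2a had 12.7 to 44.6 CPM in beads (median 24.4) and 30.5 to 56.3 CPM in the depleted fraction (median 40.9), lower in 14 of 14 lysates. Its log2 difference was -0.81 (SE 0.098, adjusted p = 8.0e-07). For Grin2b, beads had 31.8 to 163 CPM (median 68.4) and the depleted fraction 89.9 to 140 CPM (median 122). Here 12 of 14 lysates were lower in beads, the exceptions being the WT 3 h lysates f1 (163 CPM in beads against 131 CPM in the depleted fraction) and f2 (142 and 140 CPM), and the log2 difference was -0.75 (SE 0.13, adjusted p = 1.1e-04).

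The bead libraries with the most and the least glial RNA were also at the ends of the range for several of these genes. An index of glia, the mean log2 CPM of the astrocyte, oligodendrocyte and microglia markers, was highest among bead libraries in WT 3 h vehicle f1 (5.19), which also had the highest bead levels of Grin2c, Grin2b and Gria3. It was lowest in WT 10 h leptin 1 (3.19), which had the lowest bead levels of Grin2c (3.88 CPM), Grin2b (31.8 CPM) and Gabrd (5.48 CPM). The part of glia, or of other carried-over RNA, in these levels was not tested.

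Of the Grin3 genes, whose subunits lower calcium flow, Grin3a had 59.6 to 93.1 CPM in beads (median 68.6) and 51.0 to 66.6 CPM in the depleted fraction (median 59.6). Fractions overlapped, 12 of 14 lysates were higher in beads, and the log2 difference was 0.26 (SE 0.048, adjusted p = 5.7e-05). With scaling by library totals Grin3a lost its call (log2 difference 0.08, adjusted p = 0.18). Grin3b was under 0.7 CPM in every library and did not pass.

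Metabotropic receptors fell in groups I and II and were mixed in group III. In group I, which raises calcium in the cell, Grm5 had a log2 difference of -0.23 (SE 0.078, adjusted p = 0.011). In group II, Grm3, which astrocytes also use, had 2.66 to 12.0 CPM in beads (median 4.92) and 6.52 to 13.6 CPM in the depleted fraction (median 10.1). Beads were lower in 14 of 14 lysates, with a log2 difference of -0.91 (SE 0.12, adjusted p = 9.6e-07). Grm2 had a log2 difference of -0.57 (SE 0.078, adjusted p = 1.8e-06).

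Group III receptors curb transmitter release at nerve endings. Grm4 had 26.6 to 69.2 CPM in beads (median 38.6) and 48.2 to 83.8 CPM in the depleted fraction (median 65.4), and was lower in the beads of all 14 lysates. Its log2 difference was -0.62 (SE 0.075, adjusted p = 3.8e-07). Grm8 went the other way, with 10.3 to 17.5 CPM in beads (median 12.9) and 7.50 to 12.6 CPM in the depleted fraction (median 9.53). It was higher in the beads of 14 of 14 lysates, by a log2 difference of 0.48 (SE 0.052, adjusted p = 5.3e-08), and Grm7 did not pass (0.09).

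Per kilobase of exon, Gabbr1 was the most abundant receptor transcript of both fractions, at 91.2 ± 13.5 RPKM in beads and 74.4 ± 10.1 RPKM in the depleted fraction (SD, n = 14 each). Next in both fractions were Glrb (33.2 ± 5.7 RPKM in beads, 36.0 ± 5.1 RPKM in the depleted fraction) and Gabbr2 (32.6 ± 9.5 and 35.7 ± 6.6 RPKM). These neighbours lay within each other's spread, as did Gria1, Grik5, Gabra3 and Gabra5 in beads, with means of 28.1 to 31.1 RPKM. Gabrq ranked 11 of the 50 genes in beads, at 16.2 ± 2.4 RPKM, and 24 in the depleted fraction, at 6.97 ± 0.99 RPKM. Gabre ranked 27 and 39, Gabrg1 19 and 29, and Glra3 28 and 38, in beads and in the depleted fraction. In the other direction, Gabrd ranked 30 in beads and 19 in the depleted fraction, and Grin2c 37 and 27.

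Shares within a receptor class do not depend on the scaling between fractions, but the share of a gene also moves when other genes of its class do. Of the summed RPKM of the 6 alpha genes, Gabra5 made up 25.4 ± 3.8% in beads and 12.8 ± 1.0% in the depleted fraction (SD, n = 14 each). Its lowest bead share, 17.8%, was above its highest depleted share, 14.1%. Gamma, delta, epsilon, theta and pi subunits were summed as the class that joins alpha and beta subunits in a receptor. There Gabrq made up 27.7 ± 2.5% in beads and 15.1 ± 1.7% in the depleted fraction. Gabrd made up 7.86 ± 3.2% of that class in beads and 21.1 ± 4.1% in the depleted fraction, with a highest bead share of 13.98% and a lowest depleted share of 14.0%.

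Among the beta genes, Gabrb2 made up 19.3 ± 3.6% in beads and 26.9 ± 2.4% in the depleted fraction. The AMPA genes were led by Gria1, with 52.0 ± 2.6% in beads and 45.8 ± 1.5% in the depleted fraction, while Gria3 took 7.65 ± 1.5% and 12.5 ± 0.84%. The level of Gria1 did not pass the test between fractions (log2 difference -0.05), while the other 3 AMPA genes were lower in beads. Of the Grin2 genes, Grin2d made up 39.5 ± 8.6% in beads and 26.9 ± 2.1% in the depleted fraction, and Grin2c 22.3 ± 6.0% and 33.0 ± 3.3%. The level of Grin2d itself did not pass the test between fractions (log2 difference -0.15), while those of the other 3 Grin2 genes were lower in beads. Of the glycine alpha genes, Glra2 took about the same share in both, 70.4 ± 3.1% in beads and 71.5 ± 2.7% in the depleted fraction, although its level was higher in beads (log2 difference 0.50).

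**Figure D3:**
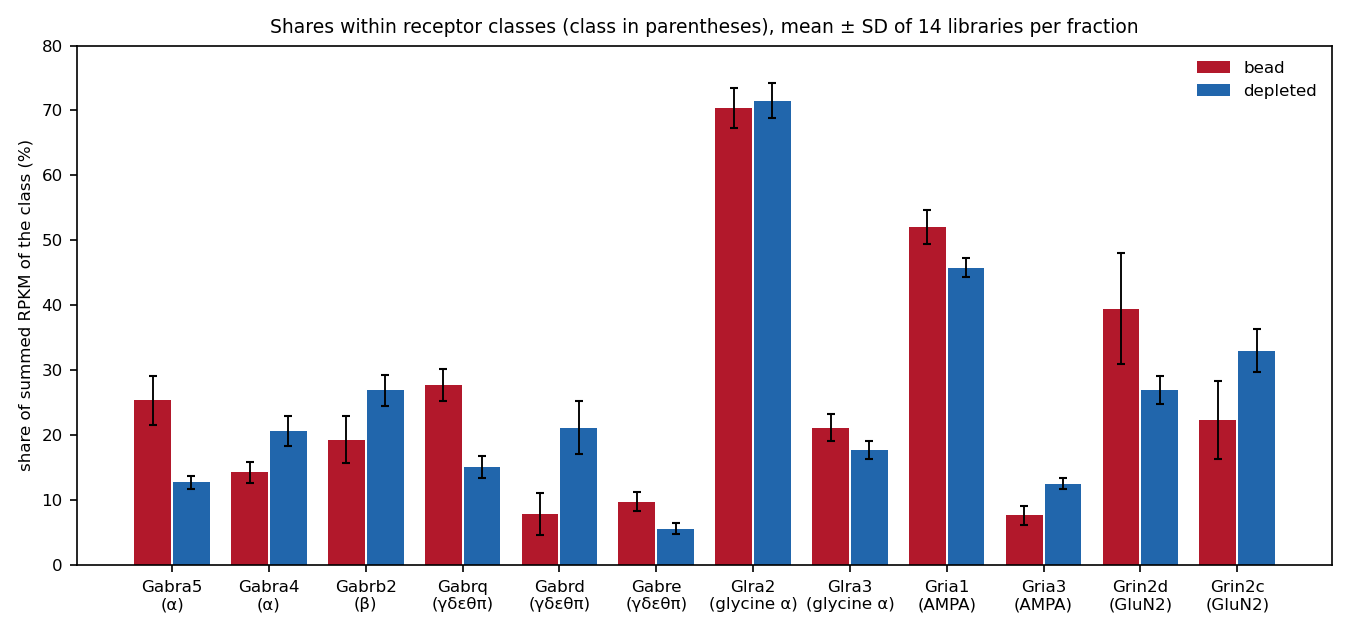
Share of 12 receptor genes in the summed RPKM of their class (y axis, %), with red bars for beads and blue bars for the depleted fraction, as mean ± SD over 14 libraries each. Gabra5 takes 25.4% of the alpha class in beads and 12.8% in the depleted fraction, and Gabrd takes 7.86% and 21.1% of the class of gamma, delta, epsilon, theta and pi subunits.

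A list of 51 partner genes held proteins that carry, anchor or assist these receptors, and transporters of chloride or of the transmitters. Of these, 19 were higher in beads, 25 lower and 7 did not pass (median log2 difference -0.14, against -0.01 over all genes). Of all genes, 77.9% passed, 38.6% higher and 39.3% lower. Among the inhibitory scaffold and auxiliary genes 7 were higher and 3 lower of 11, and among the excitatory scaffold genes 2 were higher and 7 lower of 12. The excitatory auxiliary genes were split, with 7 higher and 7 lower of 16, and both delta receptor genes were higher. Differences between these lists were not tested. The largest rises were those of Gabarap, which binds gamma subunits in their traffic (log2 difference 0.75, SE 0.056, adjusted p = 2.2e-10), and of the AMPA auxiliary genes Cacng8 (0.47, SE 0.092, adjusted p = 1.5e-04) and Cnih2 (0.45, SE 0.065, adjusted p = 4.0e-06). The largest falls were those of the GABA transporter gene Slc6a13 (-1.54, SE 0.19, adjusted p = 8.6e-07), of Homer3, a scaffold of group I receptors (-1.44, SE 0.10, adjusted p = 1.1e-10), and of the AMPA auxiliary gene Cacng7 (-1.19, SE 0.067, adjusted p = 1.1e-11). Of the 10 transport genes, 8 were lower in beads, among them Slc1a2 and Slc1a3 (both -1.03), which are also astrocyte markers. The 12 astrocyte markers were all lower, with a median log2 difference of -1.14.

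Enrichment in beads was then compared between genotypes and times, as the difference of the within-lysate ratio. Between ob/ob and WT at 10 h, 0 of the 47 genes differed by edgeR's test, where 0.142% of all genes did. An unadjusted p under 0.05 was found for 6 (12.8%), near the 12.1% of all genes, and DESeq2 called 0. The smallest p-values were those of Gabrg1, Grm3 and Gabrd. Log2 enrichment was 0.45 in ob/ob and 0.82 in WT for Gabrg1 (difference -0.37, SE 0.12, adjusted p = 0.31). It was -0.75 and -1.44 for Grm3 (difference 0.68, adjusted p = 0.37), and -1.02 and -1.60 for Gabrd (difference 0.58, adjusted p = 0.37), in the same order. Gabrq (1.06 in ob/ob, 1.24 in WT), Gabre (1.10 and 1.26), Gabra5 (0.97 and 0.98) and Glra3 (0.76 and 0.79) were enriched in both genotypes.

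Between WT 10 h and WT 3 h, 1 gene, Grm5, differed in enrichment. Bead levels were 40.9, 59.2, 41.2 and 80.3 CPM at 10 h, the last from vehicle mice, and 52.9 to 92.0 CPM (median 65.6) at 3 h; depleted levels were 62.1, 84.1, 72.8 and 114 CPM at 10 h, in the same order, and 59.5 to 76.9 CPM (median 69.5) at 3 h. Log2 enrichment was -0.59 (SE 0.097) at 10 h and -0.02 (SE 0.073) at 3 h, a difference of -0.57 (SE 0.12, adjusted p = 0.048). Of all genes, 0.432% were called in this comparison and 0.427% were called lower. The call was lost without the lysate as a block (adjusted p = 0.074), with library totals (0.052), and with 11 of the 14 lysates left out in turn (adjusted p up to 0.19).

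Direction at 10 h was shared widely: 41 of the 47 genes (87.2%) had a lower enrichment at 10 h than at 3 h, against 49.9% of all genes, with medians of -0.18 and 0.00 on the log2 scale. The shift varied with exon length over all genes too. With 5 kilobases of exon or more, medians were -0.19 over 33 receptor genes and -0.10 over all 6778. With 2 to 5 kilobases they were -0.10 over 14 receptor genes and 0.05 over all 8285. The part of exon length was not tested. Log2 enrichment of Grin2c was -1.98 at 10 h and -0.85 at 3 h, and of Grin2b -1.30 and -0.40. Glial markers moved likewise, with median differences of -1.07 for astrocytes, -0.57 for oligodendrocytes and -0.57 for microglia, and 0.15 for general neuron markers. Their part in the shift of the receptor genes was not tested.

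Leptin was compared with vehicle within each genotype and time. No receptor gene passed the test in beads, and in the depleted fraction 2 fell, Gria1 among them, when all strata were fitted at once; most other receptor genes were a little lower after leptin without passing the test. By their medians, astrocyte, oligodendrocyte and microglia markers were lower after leptin in beads as well. In the depleted fraction those of astrocytes and microglia were lower, and those of oligodendrocytes were nearly level.

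At 3 h in beads, 0 of 46 genes were called by edgeR (0.022% of all genes). Of them, 3 had an unadjusted p under 0.05 (6.52%, against 7.48% of all genes) and DESeq2 called 0. Gabrq had 72.1 to 84.3 CPM in the 3 leptin libraries and 91.3 to 96.6 CPM in the 4 vehicle libraries. Gabre had 19.3 to 23.9 CPM with leptin and 25.8 to 32.7 CPM with vehicle. The kainate subunit Grik4 had 21.3 to 25.4 CPM with leptin and 27.0 to 32.3 CPM with vehicle. In these 3 genes the groups did not overlap, but the log2 differences of -0.26, -0.35 and -0.35 had adjusted p-values of 0.66. Over the 46 genes, 44 were lower with leptin (95.7%, against 52.3% of all genes), with a median of -0.17. Genes are not independent, since each library enters every one of these values.

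At 3 h in the depleted fraction, 0 genes were called among the receptor genes and 0% of all genes. An unadjusted p under 0.05 was found for 18 receptor genes (39.1%, against 9.48% of all genes), and DESeq2 called 1. The gene with the smallest p was Gabrg1, with 29.2 to 36.3 CPM after leptin and 41.8 to 46.5 CPM after vehicle. These groups did not overlap (log2 difference -0.44, adjusted p = 0.29). Glra2 (-0.27, adjusted p = 0.36) and Grik2 (-0.28, adjusted p = 0.37) followed, also without overlap.

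At 10 h the effect is the mean of WT, with 3 leptin libraries and 1 vehicle library, and ob/ob, with 1 leptin library and 2 vehicle libraries. In beads, 0 of 46 genes were called (0.022% of all genes), 14 had an unadjusted p under 0.05 (30.4%, against 9.09% of all genes) and DESeq2 called 0. Gabra3 had 110 CPM after leptin and 134 and 135 CPM after vehicle in ob/ob, and 97.2 to 122 CPM after leptin and 146 CPM after vehicle in WT. Both genotypes were lower with leptin, at a log2 difference of -0.38 (adjusted p = 0.45), and Gria2 (-0.49, adjusted p = 0.48) was also among the 3 genes with the smallest p-values. In the depleted fraction, 0 of 46 were called (0.00523% of all genes), 7 had an unadjusted p under 0.05 (15.2%, against 8.98% of all genes) and DESeq2 called 2. The smallest p-values were those of Grm5 (-0.42, adjusted p = 0.14) and Gria3 (-0.34, adjusted p = 0.14).

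With 1 leptin term over all 3 strata, 7 leptin libraries were set against 7 vehicle libraries in each fraction. In beads, 0 of 46 genes were called (0.022% of all genes), 15 had an unadjusted p under 0.05 (32.6%, against 11% of all genes) and DESeq2 called 0. Gabrq had a log2 difference of -0.27 (SE 0.081, adjusted p = 0.26), Gabre of -0.37 (SE 0.11, adjusted p = 0.26) and Gabra3 of -0.26 (adjusted p = 0.26). The median was -0.21, and 45 of 46 genes were lower with leptin (97.8%, against 48.4% of all genes), Glra1 being the exception.

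In the depleted fraction, 2 of 46 genes were called, both lower, where 0.623% of all genes were called and 0.534% were called lower. Gria1 had 171 CPM after leptin and 192 and 194 CPM after vehicle in ob/ob, 163 to 208 CPM after leptin and 239 CPM after vehicle in WT at 10 h, and 162 to 197 CPM after leptin and 202 to 223 CPM after vehicle in WT at 3 h. In each stratum every leptin library was under every vehicle library, with a log2 difference of -0.25 (SE 0.050, adjusted p = 0.039). The WT 10 h vehicle library was the highest of the fraction. Without that lysate the value of Gria1 was -0.22 (adjusted p = 0.22), and it was not called. Leaving out any of the WT 3 h lysates m1, f1, f2 and f4, WT 10 h leptin 3, ob/ob vehicle 2 or ob/ob leptin 1 also ended its call, with adjusted p-values of 0.057 to 0.13.

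Glia went along with this leptin difference. In beads, the 12 astrocyte markers summed to 773 to 1326 CPM in leptin libraries and 903 to 1701 CPM in vehicle libraries, and all 12 were lower with leptin, at a median log2 difference of -0.66. Microglia markers had a median of -0.78, oligodendrocyte markers of -0.50 and general neuron markers of 0.02 in the same fit. In the depleted fraction the medians were -0.25 for astrocyte, -0.50 for microglia, -0.04 for oligodendrocyte and 0.02 for neuron markers. With a glial index of each library (the mean log2 CPM of its astrocyte, oligodendrocyte and microglia markers) as a covariate, the median of the receptor genes was 0.02 in beads, with 19 of 46 lower, and -0.02 in the depleted fraction, with 25 of 46 lower. Gria1 was then not called (adjusted p = 0.68). The index was 3.19 to 4.58 in bead libraries of leptin mice and 3.87 to 5.19 in those of vehicle mice. As the index itself differed between leptin and vehicle libraries, that fit cannot tell glia and leptin apart. The part of glia in the leptin difference was not tested.

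Between fractions, the shared leptin effect differed in 0 of 47 genes (0.0305% of all genes), with 0 at an unadjusted p under 0.05 (5.34% of all genes) and 0 by DESeq2. Among the smallest p-values were those of Gabra3 (difference of bead minus depleted effect -0.17, adjusted p = 0.94) and Gabra4 (-0.14, adjusted p = 0.98).

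**Figure D4:**
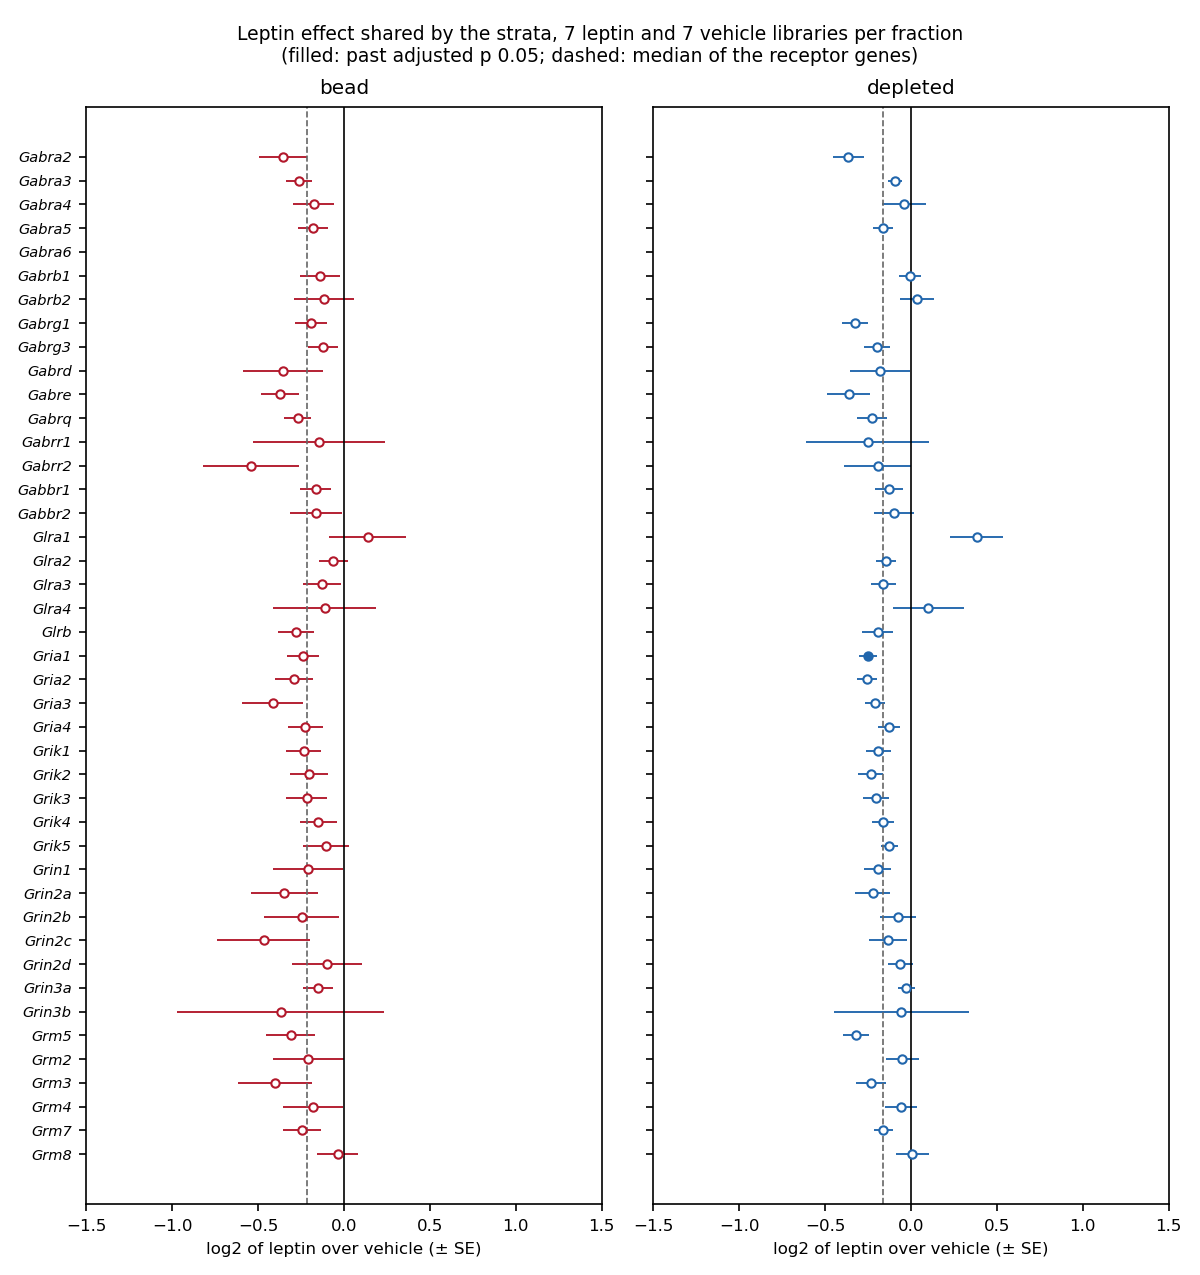
Log2 of leptin over vehicle level (x axis, ± SE) for receptor genes in beads (left panel) and in the depleted fraction (right panel), from 7 leptin and 7 vehicle libraries each. The dashed lines are the medians of the receptor genes, -0.21 in beads and -0.16 in the depleted fraction, and the filled point is Gria1. Gabra6 had too few counts to be tested here.

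At 10 h, ob/ob was compared with WT, although genotype and sequencing run cannot be told apart. Both genotypes held leptin and vehicle lysates (1 and 2 in ob/ob, 3 and 1 in WT). The comparison therefore does not set a lack of leptin against its presence. Receptor genes of the depleted fraction that differed were all lower in ob/ob: the metabotropic genes Grm3, Grm5 and Grm7, the kainate and AMPA genes Grik2 and Gria2, and the GABA-A gene Gabrb1. These were 6 of 46 genes, where 5.57% of all genes were called and 2.85% were called lower. With the glial index of each library as a covariate, 4 genes were lower, all among these 6, and 2 others were higher. How many of all genes that fit called is not reported here. Gria2 (adjusted p = 0.066) and Grm7 (adjusted p = 0.092) were then not called.

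Grm3 had 7.59 CPM after leptin and 6.52 and 7.16 CPM after vehicle in ob/ob, against 8.97 to 10.6 CPM after leptin and 12.9 CPM after vehicle in WT. The genotypes did not overlap (log2 difference -0.63, SE 0.13, adjusted p = 0.013). Gabrb1 had 119 CPM after leptin and 94.9 and 102 CPM after vehicle in ob/ob, against 122 to 145 CPM after leptin and 146 CPM after vehicle in WT. Here too the genotypes were apart, by a log2 difference of -0.35 (SE 0.080, adjusted p = 0.022).

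Grm5 had 60.8 to 71.1 CPM in ob/ob and 62.1 to 114 CPM in WT, with overlap (log2 difference -0.47, SE 0.092, adjusted p = 0.012). Gria2 had 197 to 239 CPM in ob/ob and 206 to 311 CPM in WT (-0.34, SE 0.087, adjusted p = 0.035). Overlap was also seen for Grik2, with 45.4 to 54.1 CPM in ob/ob and 52.8 to 78.3 CPM in WT (-0.37, SE 0.086, adjusted p = 0.024), and for Grm7, with 28.6 to 33.9 CPM in ob/ob and 32.1 to 42.9 CPM in WT (-0.32, SE 0.087, adjusted p = 0.048). In the 4 genes with overlap, the highest value was that of the only WT 10 h vehicle library. Microglia markers were lower in ob/ob too (12 of 12 negative, median -0.31), and general neuron markers had a median of 0.09. The part of these cells in the differences was not tested. Grm3, Grm5 and Grik2 kept their calls with any lysate left out that could be. Gabrb1 lost its call without ob/ob vehicle 1 (adjusted p = 0.051), Gria2 without that lysate or WT 10 h leptin 2 or 3 (0.063 to 0.067), and Grm7 without ob/ob vehicle 2, WT 10 h leptin 2 or 3, or any of the WT 3 h lysates m1, m24, f2 and f3 (0.051 to 0.095).

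In beads, 0 of 46 genes differed between ob/ob and WT (0.472% of all genes), with 4 at an unadjusted p under 0.05 (8.7%, against 9.78% of all genes) and 0 by DESeq2. Gabrg1 had 56.5 to 63.6 CPM in ob/ob and 69.5 to 96.4 CPM in WT. That is without overlap, at a log2 difference of -0.54 (adjusted p = 0.18). Gabrq (-0.42, adjusted p = 0.19) and Glra3 (-0.41, adjusted p = 0.44) had the next smallest p-values.

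The later time was compared with the earlier in WT, where time after injection, length of fast and sequencing run cannot be told apart. In the depleted fraction 7 of 46 genes were higher at 10 h than at 3 h and 0 lower, where 7.18% of all genes were called and 3.17% were called higher. With the glial index as a covariate the same 7 genes were higher and 5 others were lower. The share of all genes called in that fit is not reported here. Largest were Gria2, with 206 to 311 CPM at 10 h and 168 to 227 CPM at 3 h, and Grm5, with 62.1 to 114 CPM at 10 h and 59.5 to 76.9 CPM at 3 h. Both overlapped, and their log2 differences, taken as the mean of the leptin and the vehicle difference, were 0.46 (SE 0.069, adjusted p = 0.0039) and 0.44 (SE 0.073, adjusted p = 0.0052).

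Gabrg1 had 41.2 to 52.0 CPM at 10 h and 29.2 to 46.5 CPM at 3 h (0.33, SE 0.083, adjusted p = 0.032). Grik2 had 52.8 to 78.3 CPM and 48.3 to 64.5 CPM (0.29, SE 0.068, adjusted p = 0.021), and Gabrg3 31.3 to 46.0 CPM and 29.0 to 37.8 CPM (0.28, SE 0.069, adjusted p = 0.026), at 10 h and 3 h. Glra2 had 36.5 to 40.4 CPM at 10 h and 27.0 to 37.3 CPM at 3 h (0.22, SE 0.063, adjusted p = 0.046). The ranges of these 4 overlapped. Gria2 and Grm5 kept their calls with any lysate left out that could be, whereas 3 genes were left without WT 10 h leptin 2 and 4 without WT 10 h leptin 3. Of the 7 genes, 3 (Gria2, Grm5 and Grik2) were also lower in ob/ob than in WT at 10 h, and both comparisons use the same 4 WT 10 h libraries, so these are not separate results. In beads, 0 genes were called between 10 h and 3 h, and 0% of all genes were. There, 14 receptor genes had an unadjusted p under 0.05 (30.4%, against 17.7% of all genes) and DESeq2 called 2. The smallest p-values were those of Gabrg1 (0.54, adjusted p = 0.15), Grin2c (-1.62, adjusted p = 0.16) and Gabra5 (0.35, adjusted p = 0.18).

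**Figure D5:**
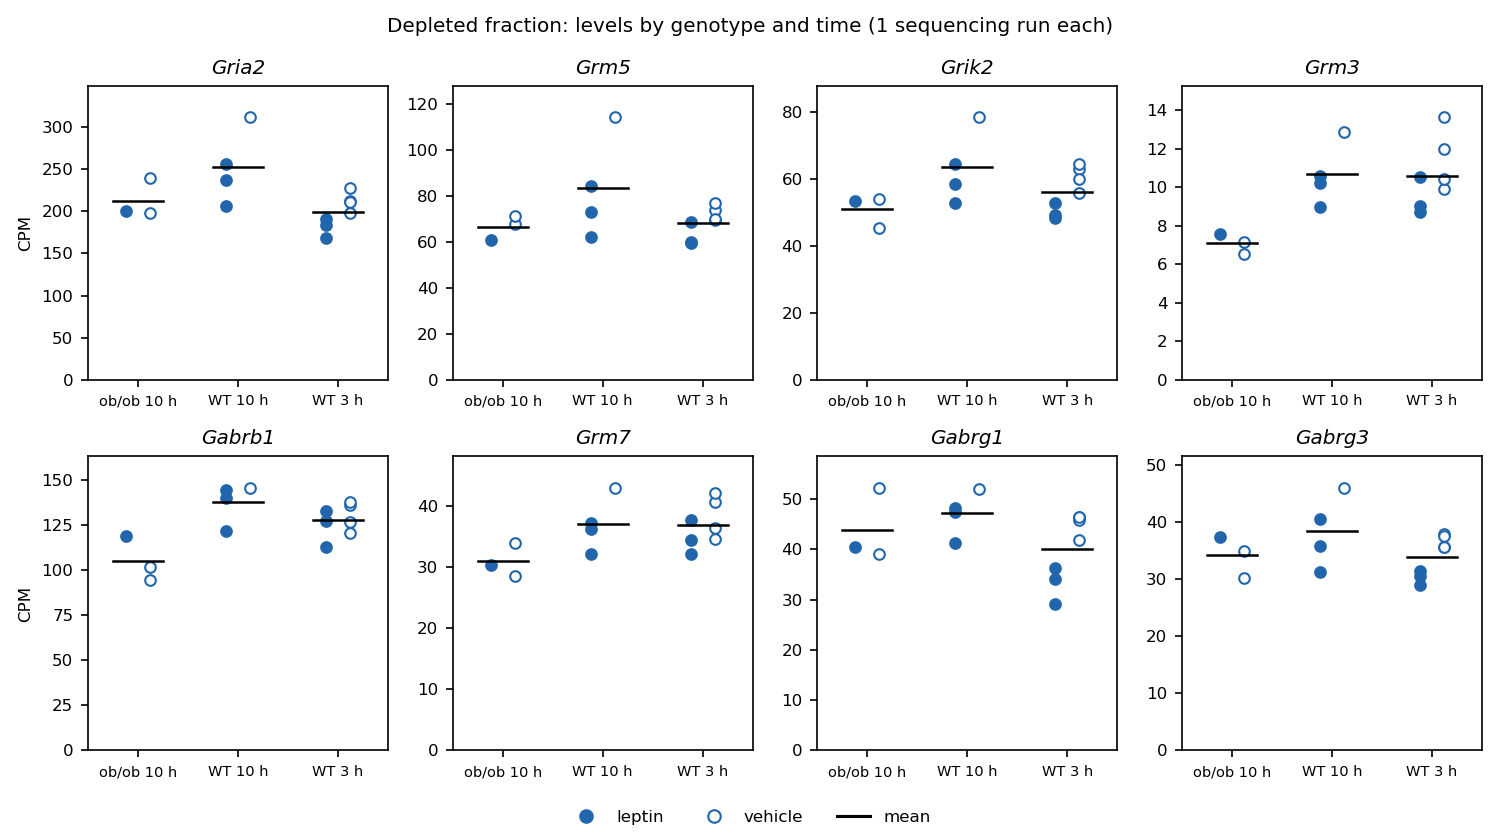
Levels in the depleted fraction (y axis, CPM) of 8 receptor genes in ob/ob 10 h, WT 10 h and WT 3 h libraries, with filled points for leptin, open points for vehicle and a bar at the mean. Grm3 and Gabrb1 are lower in every ob/ob library than in every WT 10 h library, and the WT 10 h vehicle library is the highest point in 6 of the 8 panels.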

How the data were processed

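RNA-seq libraries of the bead and the depleted fraction were analysed. The authors deposited raw counts of reads per gene, not normalized, for 55487 genes and 28 libraries. Libraries were poly(A)-selected and unstranded, from RNA of integrity number 8 or more, and read from 1 end over 50 cycles, per the labels' protocols. STAR 2.7.6a and the build GRCm38.p6 are named in the submitters' processing notes. Neither the counting program nor its strand setting is given in the sources used here. The protocol names saline and the treatment labels name PBS as the vehicle.

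Members and gene lists were chosen with earlier results of these data known. Genes that reached 10 counts in 3 or more libraries entered a fit, with TMM scaling, and were tested in R 4.3.3 with edgeR 4.0.16 (quasi-likelihood F test, robust). Fractions were compared with the lysate as a block, because its libraries share 1 tissue. To check this pairing, bead and depleted libraries were compared: deviations from group means correlated at r of 0.105 to 0.491 within 12 lysates, and each of the 12 correlated best with its own partner. Within a fraction, 6 groups were fitted together with 8 residual degrees of freedom, and a group of 1 library is assumed to vary like the other groups. The leptin effect over all strata had a term for stratum. DESeq2 1.42.0 was an alternative. The fits were tested on simulated data. Exon lengths and positions came from GENCODE M21, which held 55141 of the IDs. RPKM used the summed exon length of a gene.

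Full statistics were given for the 10 largest rises and the 10 largest falls between fractions. For other comparisons they were given for all genes that passed, or for the 3 smallest p-values where none did. The 3 largest partner genes in each direction were named. Some receptor genes are not reported here by name; counts and medians over the receptor genes include them. Counts carry no molecular identifiers in the sources used here, so depth bounds counting error only. Values of single-library groups have no spread of their own.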

Additional observations from a re-analysis of the deposited data

Results flagged for a closer look

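In lysate WT 3 h vehicle f3, Gabrg1 lay apart from the other lysates of its group in both fractions. Its bead level was 55.2 CPM, against 66.2 to 68.1 CPM in the other 3 bead libraries. Its depleted level was 41.8 CPM, against 45.8 to 46.5 CPM in the other 3 depleted libraries. Both passed Dixon's criterion for a group of 4 (0.829). There were 94 such tests over 47 receptor genes, and chance alone gives about 1 in 20.

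The enrichment of Grm5 in beads differed between WT 10 h and WT 3 h by -0.57 on the log2 scale (edgeR adjusted p = 0.048). Grm5 was the 1 receptor gene for which a difference between times in the bead to depleted ratio passed the test. Grm5 was also higher at 10 h in the depleted fraction by itself, by 0.44 on the log2 scale (adjusted p = 0.0052).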

How the results depend on the processing

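Between fractions, 13 receptor genes were higher and 23 lower. Scaling by library totals, under which the median of all genes was -0.19 (-0.01 with TMM), gave 8 higher and 27 lower. Without the lysate as a replicate block, 11 were higher and 19 lower. Leaving out each lysate gave 12 to 14 higher and 22 to 24 lower. With vehicle lysates only, Gabrb1, Gabbr2, Glrb and Grm5 lost their calls (adjusted p of 0.051, 0.16, 0.23 and 0.071). Grm7 was then called higher (adjusted p = 0.043). For enrichment at WT 10 h against WT 3 h (1 gene), the count was 0 with library totals, with RLE factors and without the replicate block, 3 with a filter of 1 CPM, 11 with DESeq2, 7 with neuron-marker scaling, 4 without lysates m3 and f2, and 0 to 12 with each lysate left out. The block changed no other call by over 1.5 times. Without the low-count filter, which adds genes of few counts to the fit, more genes were called: 12 for that enrichment, 3 for ob/ob enrichment, 12 for leptin in depleted RNA at 3 h, 7 in beads and 11 in depleted RNA at 10 h, 7 in beads and 22 in depleted RNA over all strata, 2 in beads (1 higher, 1 lower) and 12 in depleted RNA (4 higher, 8 lower) for ob/ob against WT, and 10 in beads (1 higher, 9 lower) and 16 in depleted RNA (11 higher, 5 lower) for WT 10 h against WT 3 h. DESeq2 called 1 gene for leptin in depleted RNA at 3 h, 2 at 10 h and 9 over all strata, and 2 in beads for WT 10 h against WT 3 h. Neuron-marker scaling gave 0 for leptin in depleted RNA over all strata and 18 in depleted RNA for WT 10 h against WT 3 h, and the glial index as a covariate gave 0 and 12 (7 higher, 5 lower). That covariate gave 6 for ob/ob against WT in depleted RNA (2 higher, 4 lower). Without m3 and f2, which held the most pituitary RNA, leptin calls over all strata were 5 in beads and 0 in depleted RNA. In that setting, which kept ob/ob leptin 1 with its pituitary RNA, WT 10 h against WT 3 h gave 1 in beads. With each lysate left out, ranges were 0 to 1 for leptin in depleted RNA at 3 h and at 10 h, 0 to 5 over all strata, 4 to 7 for ob/ob against WT in depleted RNA, and 0 to 2 in beads and 3 to 9 in depleted RNA for WT 10 h against WT 3 h. They were 0 to 0 for leptin in beads at 3 h, at 10 h and over all strata, for the fraction difference of leptin, for ob/ob enrichment and for ob/ob beads. Where a contrast needs the lone WT 10 h vehicle or ob/ob leptin library, no value without it could be had. No gene picked for full statistics by the rule above changed sign in its comparison under any alternative tried. Grin1, which was outside that rule and did not pass, kept its sign between fractions in 21 of 23 settings (log2 differences of -0.0995 to 0.125). Shares of all genes called under each alternative, DESeq2 included, are not reported here. Changes in the counts of receptor genes therefore cannot be set against changes over all genes. The cause of these changes was not tested.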
